A study of Mus musculus with 10 samples.

Results

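The regions described here were open chromatin sites called in embryonic thymic epithelium and again in the day 6 fraction labelled mTEC2, but in neither of the other day 6 fractions. All peaks of the 10 deposited lists were merged into regions where they overlapped or touched, which gave 351411 regions. A region was kept if it was called in at least 3 of the 4 embryonic lists and in both mTEC2 lists, and in none of the 4 mTEC1 and mTEC4 lists. The rule left 2010 member regions, 2.31% of the 87001 regions called in at least 3 embryonic lists, which are called embryonic regions below. The members were chosen by the peak calls themselves, so call counts and peak strengths are given as a description and carry no test. Absence from a list does not show closed chromatin, only that the caller reported no peak there.

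Wild-type mice of the strain C57BL/6 gave all libraries, from sorted thymic epithelial cells (TEC) freed with the enzyme mix Liberase TH and DNase, with 2 libraries in each of 5 groups. The groups were TEC at embryonic day 15 (E15), TEC at embryonic day 17 (E17), and the fractions mTEC2, mTEC1 and mTEC4 taken at day 6. The titles do not spell out what the 3 fraction names stand for and name no fraction for the embryonic cells. Inside the lists, the peak names of the embryonic and mTEC2 libraries carry a tag "hi" that the mTEC1 and mTEC4 names lack, so age, sort and fraction cannot be told apart. The labels do not say whether replicates came from separate animals, so the spread between them may be technical.

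The thymic epithelium forms the stroma in which T cells mature. Cortical TEC support and positively select thymocytes, and medullary TEC (mTEC) display self antigens so that self-reactive thymocytes can be removed. In the assay for transposase-accessible chromatin (ATAC-seq), a transposase cuts and tags open DNA. Open sites at gene starts are mostly promoters, which are often rich in the dinucleotide CG, whereas open sites inside introns and between genes are often enhancers, whose use is more restricted to a cell type or stage.

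RefSeq promoter windows, from 250 bases before to 50 bases after a gene start, were at hand for the chromosomes of 1944 of the 2010 members. The other 66 could not be scored. Of the 1944, 55 overlapped a window (2.83%), against 14.0% of the 83999 embryonic regions on the same chromosomes. These members touched 57 windows, of which 25 lay wholly inside the member and 21 of those belonged to protein-coding genes. Those 21 windows held 3 to 45 CG pairs, with a median of 18. The windows with the fewest and the most CG pairs among the 21 are printed to show how unlike each other the promoters of this set were. Each runs 5′ to 3′ on the gene's own strand in build GRCm38.p6 (mm10), and capitals mark the CG pairs. Tnfsf15 (chr4:63745010-63745309, minus strand), Gm960 (chr19:4698619-4698918, minus strand) and Sertad4 (chr1:192851698-192851997, minus strand) were taken as those with the fewest, Galnt5 being level with Sertad4 at 5 and ranking lower in strength. Klc1 (chr12:111758618-111758917, plus strand), Fgf13 (chrX:59134387-59134686, minus strand) and C77080 (chr4:129248394-129248693, minus strand) had the most.
Tnfsf15: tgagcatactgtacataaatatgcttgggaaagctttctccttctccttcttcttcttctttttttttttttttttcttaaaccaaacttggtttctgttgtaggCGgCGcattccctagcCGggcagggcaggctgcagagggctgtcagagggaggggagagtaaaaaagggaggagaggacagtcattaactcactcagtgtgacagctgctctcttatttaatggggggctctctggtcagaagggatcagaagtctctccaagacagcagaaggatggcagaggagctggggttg
Gm960: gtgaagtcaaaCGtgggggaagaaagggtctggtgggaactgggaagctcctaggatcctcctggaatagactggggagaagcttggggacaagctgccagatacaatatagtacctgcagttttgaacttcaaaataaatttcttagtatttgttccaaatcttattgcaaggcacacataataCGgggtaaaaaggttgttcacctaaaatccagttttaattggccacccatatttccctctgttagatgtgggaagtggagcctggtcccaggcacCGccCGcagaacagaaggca
Sertad4: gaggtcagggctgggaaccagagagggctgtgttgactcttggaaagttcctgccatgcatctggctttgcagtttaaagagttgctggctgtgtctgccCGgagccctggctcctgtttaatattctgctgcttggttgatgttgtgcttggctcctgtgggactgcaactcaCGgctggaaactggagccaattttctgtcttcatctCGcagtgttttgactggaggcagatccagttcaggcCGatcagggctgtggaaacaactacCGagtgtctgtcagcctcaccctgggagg
Klc1: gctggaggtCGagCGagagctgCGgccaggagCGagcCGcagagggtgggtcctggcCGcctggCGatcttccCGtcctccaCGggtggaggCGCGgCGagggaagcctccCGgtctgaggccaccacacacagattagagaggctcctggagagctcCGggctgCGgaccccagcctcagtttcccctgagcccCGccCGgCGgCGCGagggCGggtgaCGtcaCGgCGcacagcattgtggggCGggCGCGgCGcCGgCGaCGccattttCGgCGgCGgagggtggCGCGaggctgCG
Fgf13: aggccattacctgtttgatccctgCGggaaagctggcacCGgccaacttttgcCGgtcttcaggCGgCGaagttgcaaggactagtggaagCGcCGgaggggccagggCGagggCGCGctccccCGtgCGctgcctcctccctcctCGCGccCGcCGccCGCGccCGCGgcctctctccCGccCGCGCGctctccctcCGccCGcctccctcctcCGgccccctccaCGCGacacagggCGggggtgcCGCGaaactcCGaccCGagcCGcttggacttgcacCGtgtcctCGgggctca
C77080: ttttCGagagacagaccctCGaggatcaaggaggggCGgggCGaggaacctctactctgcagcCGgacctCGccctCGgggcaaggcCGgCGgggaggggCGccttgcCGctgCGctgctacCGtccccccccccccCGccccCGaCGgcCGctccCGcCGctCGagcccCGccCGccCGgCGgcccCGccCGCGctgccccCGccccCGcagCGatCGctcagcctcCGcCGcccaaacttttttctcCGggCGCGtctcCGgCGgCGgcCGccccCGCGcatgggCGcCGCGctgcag

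The Tnfsf15 window, upstream of a cytokine of the TNF superfamily, held 3 CG pairs and a GC content of 48.0%. Its member spanned chr4:63744700-63745535. The −log10 q of its strongest peak, a measure of how clearly the authors' caller separated a peak from background, was 4.31 and 5.06 in the E15 lists, 3.60 and 6.16 in the E17 lists, and 1.79 and 1.54 in the mTEC2 lists. Both mTEC2 values lay below all 4 embryonic ones. Values from different lists are not on a common scale, here and in every such comparison below. The Klc1 window, at the start of a kinesin light chain gene, held 37 CG pairs and a GC content of 73.7%. The Klc1 member had −log10 q values of 2.46 and 2.94 at E15, 2.54 and 3.84 at E17, and 2.83 and 2.28 in mTEC2, which overlapped between the stages. Fgf13, a fibroblast growth factor family member, also held 37 CG pairs, and its member was weak in every list, with values of 1.64 and 2.86 at E15, 2.03 and 2.15 at E17, and 1.23 and 1.82 in mTEC2. Sertad4, with 5 CG pairs, had the strongest embryonic peaks of the printed promoters in 3 of the 4 embryonic lists, at 12.9 and 9.74 at E15 and 9.39 and 17.5 at E17, against 2.16 and 1.77 in mTEC2.

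CG pairs were fewer in windows touched by a member than in windows touched by any embryonic region. The 57 member windows had a median of 10 CG pairs and a GC content of 55.0%, whereas the 13501 windows touched by any embryonic region had medians of 21 CG pairs and 61.7%. All 32817 RefSeq windows had medians of 7 CG pairs and 52.7%, so the members lay between the embryonic regions and promoters at large. At least 10 CG pairs were found in 30 member windows (52.6%), in 83.4% of windows at embryonic regions and in 43.4% of all windows. The 23 windows at regions kept in mTEC1 alone had a median of 14 CG pairs, and the 23 at regions kept in mTEC4 alone had 17. A window counted at any overlap, however short. Protein-coding genes held 75.4% of member windows, against 84.2% of windows at embryonic regions. The 21 protein-coding windows wholly inside a member had a median of 18 CG pairs, and windows at embryonic regions were not cut the same way. These shares describe windows and were not tested.

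**Figure D1:**
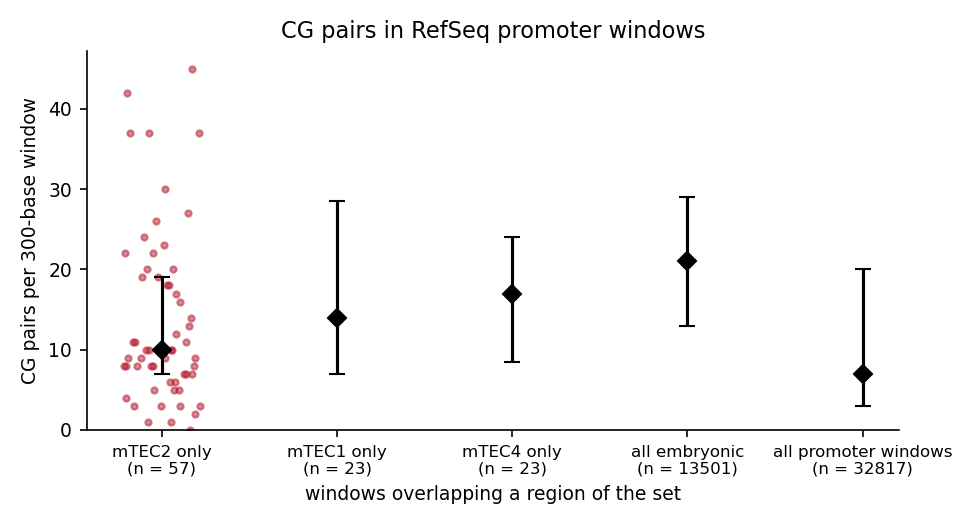
Number of CG pairs per 300-base RefSeq promoter window, for windows touched by a member, by a region kept in mTEC1 alone, by a region kept in mTEC4 alone or by any embryonic region, and for all windows in the table. Diamonds are medians, bars run from the 25th to the 75th percentile, and dots are the single member windows. The member windows had a median of 10 CG pairs, below the 21 of windows at embryonic regions and above the 7 of all windows.

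The 28 members whose windows held at least 10 CG pairs had a median −log10 q of 4.12 and 4.45 in the E15 lists, 3.86 and 5.81 in the E17 lists, and 2.10 and 1.82 in the mTEC2 lists. The 27 members with fewer CG pairs had medians of 5.22 and 5.41 at E15, 3.94 and 8.62 at E17, and 1.64 and 1.83 in mTEC2. The medians of the members with fewer CG pairs were thus higher in all 4 embryonic lists, though by little in E17 replicate 1. They were lower in mTEC2 replicate 1 and nearly equal in mTEC2 replicate 2. The ranges overlapped in every list, the same split was not made over all embryonic regions, and the difference was not tested.

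Binding motifs were counted in the 57 windows as exact letters on either strand, with N for any base, and matches of different motifs may share bases. The GC box, GGGCGG, was in 24 member windows (42.1%), against 65.8% of windows at embryonic regions and 35.6% of all windows. The NF-Y letters CCAAT were in 26.3% of member windows, against 37.3% at embryonic regions and 37.4% of all windows. The ETS letters CCGGAAG were in 8.77% of member windows, against 16.3% at embryonic regions and 8.86% of all windows. These 3 sets of letters were less frequent at the members than at embryonic regions. The 23 windows at regions kept in mTEC1 alone and the 23 at regions kept in mTEC4 alone held the GC box in 60.9% and 60.9% of cases, NF-Y letters in 26.1% and 30.4%, and ETS letters in 0% and 4.35%, so few NF-Y and ETS letters were not particular to the members.

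The letters AACCNGTT, bound by the grainyhead family of epithelial transcription factors, were in 4 member windows (7.02%), against 1.79% at embryonic regions and 2.08% of all windows. RUNX letters (TGTGGTT) were in 5 member windows (8.77%), against 3.34% and 5.27%. TEAD letters (GGAATG) were in 10 member windows (17.5%), against 11.8% and 14.7%. Among windows at regions kept in mTEC1 alone and in mTEC4 alone, grainyhead letters were in 0 and 0, RUNX letters in 4.35% and 4.35%, and TEAD letters in 26.1% and 8.70%, so TEAD letters were more frequent at mTEC1 regions than at the members. Counts of 4 or 5 windows are small, sets of 23 are smaller still, and a match says only that the letters were present. AP-1 letters (TGANTCA) were in 4 member windows (7.02%), against 4.53% at embryonic regions and 7.81% of all windows. The 10-letter NF-kB motif was in 4 member windows (7.02%), against 5.24% and 4.60%. GATA letters (AGATAA) were in 10.5%, against 5.34% and 11.2%. SOX letters (ACAAAG) were in 15.8%, against 12.6% and 18.7%. For AP-1, GATA and SOX letters the members lay between embryonic regions and all windows, and for NF-kB above both, on 4 windows. At mTEC1 alone and mTEC4 alone, AP-1 letters were in 4.35% and 4.35%, and the NF-kB motif in 4.35% and 8.70%. GATA letters were there in 0% and 4.35%, and SOX letters in 13.0% and 17.4%.

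CRE letters (TGACGTCA) were in 2 member windows (3.51%), against 3.10% at embryonic regions and 1.79% of all windows. Forkhead letters (TGTTTAC) were in 1 member window (1.75%), against 2.36% and 3.65%, and the IRF motif was in 1 member window, against 2.80% and 3.43%. The octamer (ATGCAAAT) and the NRF1 motif were in 0 member windows, against 1.43% and 1.87% at embryonic regions and 1.74% and 0.966% of all windows. At regions kept in mTEC1 alone the octamer was in 2 of 23 windows (8.70%), and at those kept in mTEC4 alone in 0.

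With all peaks, more embryonic regions were kept in mTEC2 alone than in either other fraction alone. Regions kept in both mTEC1 lists and in no mTEC2 or mTEC4 list numbered 229 (0.263% of embryonic regions), and those kept in mTEC4 alone numbered 156 (0.179%), against the 2010 members kept in mTEC2 alone. Both mTEC2 lists called 21668 embryonic regions, of which 9.28% were in no other day 6 list and 45.4% (9831 regions) were in all of them. Both mTEC1 lists called 17247 embryonic regions, of which 1.33% were in no other day 6 list and 57.0% in all. Both mTEC4 lists called 13429, of which 1.16% were in no other day 6 list and 73.2% in all. The lists differed in length, with 101917 and 40858 peaks for mTEC2, 82281 and 71327 for mTEC1, and 70144 and 71192 for mTEC4.

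The mTEC2 lists called 55.9% and 28.0% of all embryonic regions, the mTEC1 lists 22.8% and 41.1%, and the mTEC4 lists 17.7% and 28.7%. The longest and the shortest day 6 list were thus both mTEC2 lists, and the share called in mTEC2 replicate 2 fell inside the range of the other fractions. When each list was shortened to its 40858 strongest peaks, 1047 regions met the rule, against 126 for mTEC1 and 58 for mTEC4. The embryonic regions then numbered 34691, so the 1047 were 3.02% of them, against 2.31% with all peaks. The mTEC1 and mTEC4 counterparts were 0.363% and 0.167%. Only 525 of the 2010 members (26.1%) overlapped one of those 1047. With only the 6 day 6 lists shortened, a setting chosen after seeing the data, the numbers were 1638, 232 and 183. The count was 3504 without mTEC2 replicate 1, 13976 without mTEC2 replicate 2 and 4403 without mTEC1 replicate 2. Leaving out a library only loosens the rule, so these counts could not fall. Without mTEC1 replicate 1, regions kept in mTEC1 alone numbered 4172, above the 2276 members under that setting. Without mTEC4 replicate 1, those kept in mTEC4 alone numbered 1482, against 2122 members. In both settings the counterpart needed only the remaining list of its fraction, whereas members still needed both mTEC2 lists, so the counts are not alike.

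**Figure D2:**
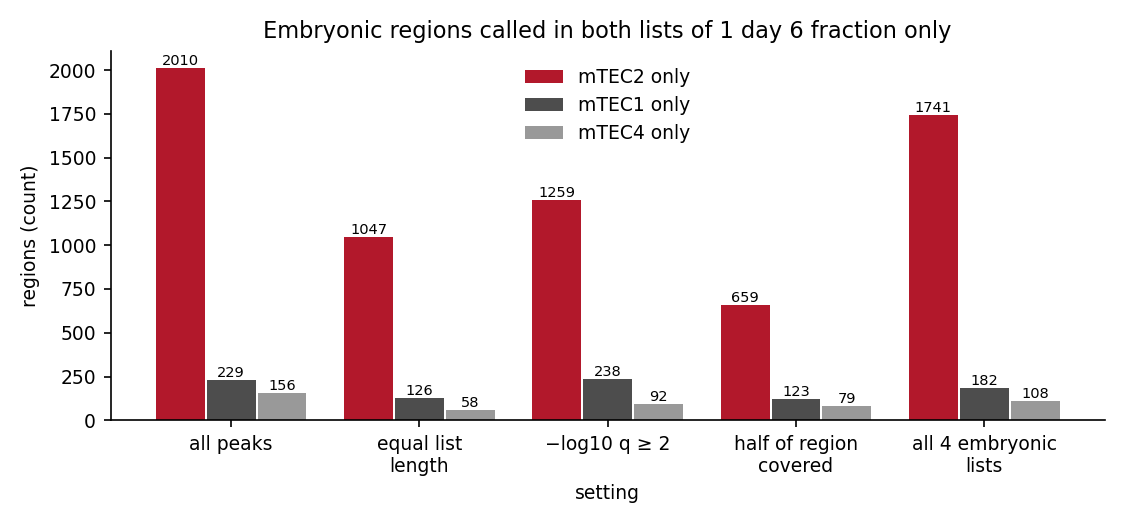
Number of embryonic regions called in both lists of 1 day 6 fraction and in no list of the others, for mTEC2, mTEC1 and mTEC4, with all peaks and under the other settings tried. With all peaks the counts were 2010, 229 and 156 of 87001 embryonic regions. With every list shortened to 40858 peaks they were 1047, 126 and 58 of 34691.

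Of all 87001 embryonic regions, 65702 were called in all 4 embryonic lists. Among the members, 1741 (86.6%) were called in all 4 embryonic lists and 269 in 3 of them. Of the 269, 175 lacked a peak in E17 replicate 1, 53 in E15 replicate 2, 40 in E15 replicate 1 and 1 in E17 replicate 2. The list of E17 replicate 1 also called the smallest share of all embryonic regions among the 4, at 86.0%, against 91.3% of members. Just outside the rule were 149 regions with the same day 6 pattern and 2 embryonic lists, and 3350 embryonic regions with both mTEC2 lists and a single call in mTEC1 or mTEC4. A further 13460 embryonic regions were called in a single mTEC2 list and in no other day 6 list. The median −log10 q in mTEC2 replicates 1 and 2 was 2.04 and 1.94 for members with 4 embryonic lists, 1.79 and 1.82 for members with 3, and 1.64 and 1.82 for the regions with 2. It was 2.65 and 2.03 for the regions with a single mTEC1 or mTEC4 call. The regions with 2 embryonic lists were thus close to the members with 3. Those with a single mTEC1 or mTEC4 call were stronger in mTEC2 replicate 1 and differed little in replicate 2.

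Members had embryonic peaks of about the usual strength and weak mTEC2 peaks. Their median −log10 q was 5.65 and 5.69 in the E15 lists, 5.81 and 10.01 in the E17 lists, and 2.02 and 1.91 in the mTEC2 lists. Over all embryonic regions called in the same list, the medians were 5.12 and 5.23 at E15, 5.57 and 8.55 at E17, and 2.82 and 2.63 in mTEC2. The members were thus above the embryonic median in all 4 embryonic lists and below it in both mTEC2 lists. The fold over background given by the authors' caller had medians of 5.60 and 5.62 at E15, 5.51 and 6.82 at E17, and 3.37 and 3.005 in mTEC2.

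A −log10 q of at least 5 was reached by 114 members (5.67%) in mTEC2 replicate 1 and 50 (2.49%) in replicate 2, and by 10 in both. In the embryonic lists the share at that level was 58.7% and 58.3% at E15 and 57.9% and 80.0% at E17. Over all embryonic regions called in the same list, it was 26.8% and 13.8% in mTEC2. The same share was 51.2% and 52.2% at E15, and 54.9% and 71.8% at E17. In mTEC2 replicate 2, 576 members (28.7%) shared the single value 1.82, which 7112 of that list's peaks (17.4%) also carried, so ranks within that list are coarse near its lower end. In 1838 members (91.4%) the mTEC2 peaks overlapped each other, an overlap that merging peaks into regions favours. The median distance between the centres of the mTEC2 peaks was 32 bp.

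**Figure D3:**
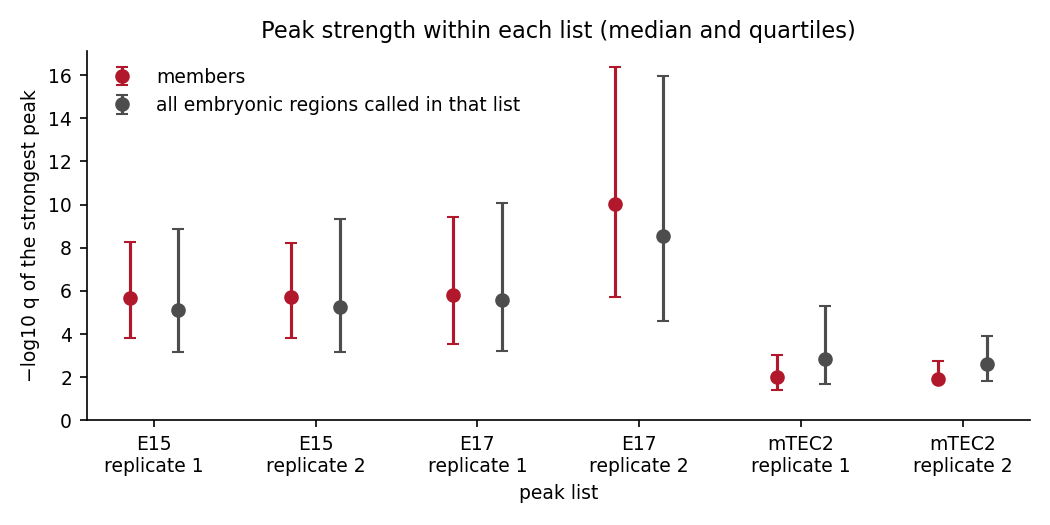
Median −log10 q of the strongest peak per member region in each list that called it, by library in the order E15, E17 and mTEC2, with bars from the 25th to the 75th percentile, beside all embryonic regions called in the same list. Member medians lay above those of all embryonic regions in the 4 embryonic lists (5.65, 5.69, 5.81 and 10.01) and below them in both mTEC2 lists (2.02 and 1.91).

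The members lay mostly away from gene ends. A position within 1 kb of either end of a protein-coding gene was found for 139 members (6.92%, Wilson 95% interval 5.89 to 8.11, counting error only), against 18.0% of all embryonic regions. Inside a gene span were 949 members (47.2%), against 42.4%, and elsewhere 922 (45.9%), against 39.7%. Regions kept in mTEC1 alone were at gene ends in 16.6% of cases and those kept in mTEC4 alone in 21.2%. By the RefSeq start sites, which carry strand, the median distance to the nearest start was 25.5 kb for the 1944 members on chromosomes with such a table, against 19.0 kb for all embryonic regions, 16.4 kb for mTEC1 alone and 10.4 kb for mTEC4 alone. Within 1 kb of a start were 5.30% of members, against 17.2% of embryonic regions. Widths did not set the members apart: the median was 391.5 bp for members and 393 bp for embryonic regions.

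The share at gene ends depended on the setting, at 8.40% with all lists shortened, 10.1% with peaks of −log10 q of at least 2, and 14.4% when a library's peaks had to cover at least 50 percent of the region. The embryonic regions also change with these settings. Their own share at gene ends was not computed there, so whether the gap narrowed cannot be read. Members were found on all placed chromosomes but Y, from 1.61% of the embryonic regions of chromosome X (32 members) to 2.96% of those of chromosome 3 (145 members). The median gap between neighbouring members was 705.6 kb. Of 1988 neighbouring pairs, 129 lay under 50 kb apart and 18 under 5 kb apart. The spacing of embryonic regions was not computed for comparison.

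**Figure D4:**
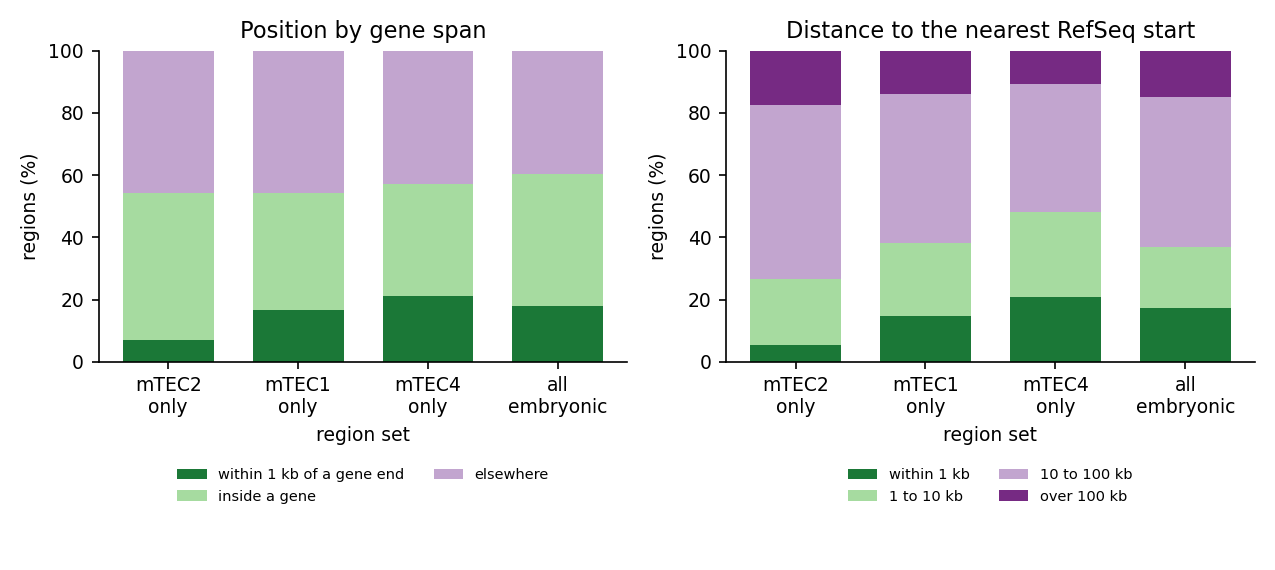
Percent of regions within 1 kb of a gene end, inside a gene span and elsewhere, for members, regions kept in mTEC1 alone, regions kept in mTEC4 alone and all embryonic regions (left), and percent by distance to the nearest RefSeq gene start (right), as stacked bars. Members were at gene ends in 6.92% of cases, against 16.6%, 21.2% and 18.0%.

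Whether position and surroundings differed between fractions was tested over the 6 day 6 libraries, with an exact two-sided permutation test over the 15 ways to choose 2 of 6, whose smallest possible p is 0.0667, so no test here can reach 0.05. For each library, the embryonic regions called in it and in none of the other 5 day 6 libraries were taken, a set that holds no member. Their share at gene ends was 6.79% and 6.89% for mTEC2, 15.0% and 7.96% for mTEC1, and 11.0% and 17.0% for mTEC4. Both mTEC2 values lay below the other 4, but with all lists shortened they were 7.80% and 6.15% and mTEC4 replicate 1, at 6.67%, lay between them. The means were 6.84% ± 0.0707 for mTEC2 (SD, n = 2) and 12.7% ± 4.02 for the other fractions (SD, n = 4), so mTEC2 minus the others was -5.89 percentage points (p = 0.133 by exact permutation, Benjamini-Hochberg adjusted over 4 measures 0.533). It was -3.16 points with all lists shortened and -22.2 points when peaks had to cover at least 50 percent of a region. The number of regions behind each share ran from 299 in mTEC4 replicate 1 to 11966 in mTEC2 replicate 1.

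The share inside genes averaged 49.2% ± 1.36 for mTEC2 and 45.6% ± 3.78 for the others (SD, n = 2 and 4), so mTEC2 minus the others was 3.53 points (p = 0.333 by exact permutation, adjusted 0.667). The median width averaged 341.75 bp ± 15.9 for mTEC2 and 334.25 bp ± 22.9 for the others, so mTEC2 minus the others was 7.5 bp (p = 0.8 by exact permutation, adjusted 0.8). Neither difference exceeded the spread between libraries.

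Embryonic regions near members were called less often than embryonic regions at large in all 6 day 6 lists. Within 5 kb of a member lay 1092 other embryonic regions, of which the mTEC2 lists called 51.3% and 21.5%, against 54.9% and 26.3% of all embryonic regions that were not members. The log2 ratio of these shares was -0.10 and -0.29 in mTEC2, -0.26 and -0.11 in mTEC1, and -0.40 and -0.25 in mTEC4, so the fractions overlapped (difference of means 0.06, exact permutation p = 0.6, adjusted 0.8). Around regions kept in mTEC4 alone, the same log2 ratio was 0.73 and 0.72 in the mTEC4 lists, 0.40 and 0.22 in the mTEC1 lists and 0.18 and 0.18 in the mTEC2 lists. Around regions kept in mTEC1 alone it was 0.17 and 0.10 in the mTEC1 lists, 0.11 and 0.19 in the mTEC4 lists and 0.04 and 0.20 in the mTEC2 lists. Ratios above 0 around both counterpart sets were thus found in the lists of every day 6 fraction.

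**Figure D5:**
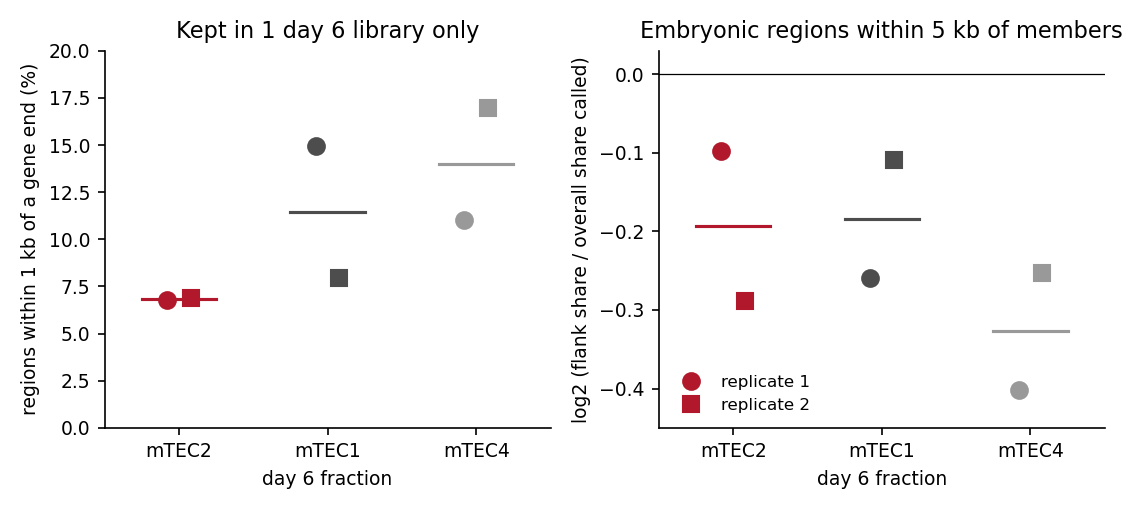
Per-library values for the 2 mTEC2, 2 mTEC1 and 2 mTEC4 libraries. The left panel gives, for embryonic regions called in that library alone among the 6, the percent at gene ends, where both mTEC2 points (6.79 and 6.89) lay below the other 4, and the right panel gives the log2 ratio of calls within 5 kb of members to calls over all embryonic regions outside the member set, where the fractions overlapped. Horizontal lines are the means of each fraction.

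The members with the highest strength, meaning the highest within-list rank in the list where each ranked lowest, were inside a gene in 5 of the 10 cases, at a gene end in 1 and elsewhere in 4. The first was at chr2:83771528-83771679 (mm10) inside Itgav, which encodes the integrin alpha-V chain. Its −log10 q was 16.3 and 21.2 at E15, 19.4 and 33.0 at E17, and 7.80 and 6.07 in mTEC2. It was well above the set's medians in every list. The next were inside Ccdc102a and inside P2ry6, a receptor for extracellular nucleotides. Ccdc102a had 13.0 and 12.2 at E15, 14.3 and 19.2 at E17, and 5.60 and 5.89 in mTEC2. P2ry6 had 12.4 and 12.5 at E15, 14.2 and 30.0 at E17, and 4.99 and 5.48 in mTEC2.

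The member inside Ptpre, a receptor-type tyrosine phosphatase, was missing from E15 replicate 2 and had 10.1 in the other E15 list, 13.5 and 16.3 at E17, and 5.85 and 6.07 in mTEC2. Inside Elmo1, which takes part in Rac activation during cell engulfment, the values were 13.9 and 10.1 at E15, 14.7 and 38.7 at E17, and 8.15 and 4.56 in mTEC2. The other members of the 10 strongest lay between genes, nearest to Mup11, Mup8, Gm6569 and the carboxylesterase gene Ces5a, at distances of 32459, 30568, 236123 and 56031 bp. Mup11 and Mup8 are near-identical members of the major urinary protein cluster, so reads there may be shared between copies and these members are uncertain.

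Of the members at gene ends, the strongest was at chr2:115859959-115860432, 832 bp outside Meis2, a homeobox transcription factor gene. It had 11.3 and 11.4 at E15, 13.6 and 22.01 at E17, and 5.12 and 4.92 in mTEC2. The member at Cbln3, a cerebellin gene, had a higher value in mTEC2 replicate 1 than in E17 replicate 1. Its values were 15.3 and 21.5 at E15, 8.34 and 17.5 at E17, and 10.1 and 4.73 in mTEC2. At Rara, the retinoic acid receptor alpha gene, a member 459 bp outside the gene had 10.8 and 7.17 at E15, 10.4 and 15.2 at E17, and 2.54 and 4.31 in mTEC2. The other gene-end members named by the same rule were at 2310033P09Rik, at Cyth1, an exchange factor for ARF proteins, at Apmap, at the centriolar kinesin gene Kif24, at the glycogen branching enzyme gene Gbe1, at the myelin enzyme gene Cnp and at the embryonic myosin gene Myh3. Their mTEC2 values ran from 2.57 to 5.94 and their embryonic values from 5.48 to 42.8.

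Within 100 kb, 1755 members had a nearest gene, and these were 1569 genes, 1412 of them with 1 member, 134 with 2 and 23 with 3 or more. Genes with 3 or more were long, with a median span of 310.6 kb. The median was 59.4 kb for the 1569 genes nearest to a member and 17.1 kb for all 21900 protein-coding genes. Celf2, an RNA-binding protein gene of 856.6 kb, had 5 members, all inside it, out of 45 embryonic regions. Their values ran from 2.62 to 12.4 in the embryonic lists and from 1.35 to 2.42 in mTEC2 replicate 2, so none of the 5 was strong in that list. Baz2b, a bromodomain gene, had 4 of 20, Dis3l2, an exoribonuclease gene, 4 of 11, Cntnap2, a neuronal adhesion gene, 4 of 42 and Wwox, an oxidoreductase gene, 4 of 54. At Dis3l2, members had −log10 q values of 7.78 and 6.65 in mTEC2 replicate 2 at chr1:86695799-86696156 and chr1:87035631-87036644, where replicate 1 had 1.62 and 2.16.

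The rule then named Btbd11, Rph3al, Rgs3, Kcnab1, Ablim1, Abca4 and Tbc1d8, with 3 members each. Rgs3 encodes a regulator of G-protein signalling, Kcnab1 a potassium channel subunit, Ablim1 an actin-binding protein and Abca4 a lipid transporter of the retina. As a share of the embryonic regions nearest to each gene, the 3 members were from 8.11% at Btbd11 to 30.0% at Kcnab1 and Tbc1d8, against 2.31% over all embryonic regions. These genes were picked for their number of members, so high shares follow from the choice. Some of these genes have few embryonic regions, so a share rests on 10 to 37 regions.

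Genes of the thymic epithelium and of other cell types were read from 16 lists of 10 to 22 genes, and a gene counted when a member lay in its span or within 10 kb. Over all 21900 genes, 1465 (6.69%) did. In the list for cortical TEC and TEC identity, 2 of 15 genes did, namely Ccl25 and Tbata. Ccl25 is the chemokine that draws T cell progenitors, and its member at chr8:4322595-4322747 lies inside the neighbouring gene Elavl1, 2458 bp from Ccl25. Its values were 6.51 and 11.0 at E15, 28.1 and 32.8 at E17, and 7.46 and 6.10 in mTEC2. Both E17 values were above both E15 values, and the mTEC2 values were high for the set. Tbata lacked a peak in E17 replicate 1 and had at most 2.56 in any list.

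In the Aire-stage list, 1 of 18 genes had a member, and in the MHC class II list 2 of 14, with Ciita in both. Ciita is the transactivator of MHC class II genes, and its member lay 7265 bp outside the gene, with 8.19 and 6.38 at E15, 4.99 and 9.31 at E17, and 2.95 and 1.58 in mTEC2. H2-DMb1, a chain of the peptide exchange factor for MHC class II, had a member 9172 bp away with 1.60 and 3.30 at E15, 6.82 and 12.3 at E17, and 2.40 and 2.06 in mTEC2. In the list of Ccl21a-high mTEC, 2 of 12 genes did: Apoe, a lipid carrier gene, and Dcn, the proteoglycan decorin. For Apoe, 3.62 in mTEC2 replicate 1 was above all 4 embryonic values, which ran from 1.26 to 3.33, and replicate 2 had 1.97. Its member ranked 1990 in strength among the 2010. The Dcn member had 2.66 and 3.47 at E15, 2.99 and 3.27 at E17, and 1.09 and 1.82 in mTEC2.

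Of the other epithelial lists, epithelial identity and adhesion 1 of 18 (Tjp1, a tight junction scaffold), the NF-kB and TNF receptor pathway 1 of 22 (Nfkbie, an NF-kB inhibitor), AP-1 and interferon regulatory factors 2 of 21 (Fosl1 and Irf5), and keratinocyte-like TEC 1 of 18 (Krtdap). The members at Nfkbie, Fosl1 and Irf5 lay nearest to other genes, Tmem151b, Fibp and Tnpo3. The Tjp1 member had 7.32 and 9.68 at E15, 20.1 and 17.9 at E17, and 4.89 and 3.03 in mTEC2. Tuft cells had 0 of 16, and microfold, endocrine and ciliated cells had 0 of 18.

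Markers of cells that a sort of thymic epithelium could also hold had members as well: mesenchyme 2 of 12 (Col3a1, a fibrillar collagen, and Pdgfrb, a growth factor receptor), endothelium 1 of 10 (Tek, the angiopoietin receptor) and thymocytes and T cells 0 of 18. Housekeeping genes had 2 of 12 (Hprt and Sdha). No list held more than 2 genes with a member, and these counts were not tested against the 6.69%. Col3a1 had 9.86 and 12.4 at E15, 14.8 and 26.0 at E17, and 1.19 and 3.43 in mTEC2. The part of other cells in these calls was not tested.

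The 6 genes Foxn1, Trp63, Pou2f3, Psmb11, Aire and Ccl21a were looked up whatever their values and had 0 members. They had 2 to 17 embryonic regions each, and since members made up 2.31% of embryonic regions, nothing is read from the 0. Foxn1, the forkhead factor of the thymic epithelium, had 8 embryonic regions, of which the mTEC2 lists called 4 and 2 but 0 in common. Trp63, an epithelial progenitor factor, had 17, of which the mTEC2 lists called 12 and 3, and Pou2f3, the tuft cell factor, had 9, of which they called 6 and 1. Psmb11, a proteasome subunit of cortical TEC, had 2, and both were called in both mTEC2 lists and also in other day 6 lists. Aire, the autoimmune regulator, had 3, of which 1 was in both mTEC2 lists, and Ccl21a, a medullary chemokine, had 5, of which 2 were in both mTEC2 lists and 1 was kept in mTEC1 alone.

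Mature microRNAs within 1 kb of a member came from 3 genes. The Copz2 member at chr11:96849637-96850169 lay 230 and 269 bp from the mature arms of miR-152, and its window held 24 CG pairs. The member chr8:108936048-108936969, nearest to Zfhx3, contained both arms of miR-3108, and a member near Plppr3 lay 916 and 953 bp from those of miR-6910. The miR-152 arms are printed because this microRNA lies beside one of the stronger promoter members, 5′ to 3′ on the plus strand (RefSeq, GRCm38.p6), with the seed, bases 2 to 8, in capitals.
mmu-miR-152-5p: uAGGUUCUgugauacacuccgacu
mmu-miR-152-3p: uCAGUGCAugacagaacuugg
The Copz2 member had 12.2 and 9.08 at E15, 8.41 and 8.06 at E17, and 3.77 and 2.51 in mTEC2, above the set's median in both mTEC2 lists and below it in E17 replicate 2.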

How the data were processed

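ATAC-seq peaks were analysed in 10 libraries, grouped by their titles. The build mm10 and the tools MACS2, Picard, Bowtie2 and cutadapt are named in the submitters' processing notes. Versions, order and any shift of read ends for the transposase are not given in the sources used here. For each library a separate broad peak list was deposited, of nucleosome-free chromatin per the labels. Each deposited peak carries a score, which was not used, a fold enrichment, which is a ratio over the background that the caller estimated, and a −log10 p and −log10 q by the authors' caller. Ranks and thresholds were taken inside 1 list at a time. Where values of different lists are set side by side, this is description only, as the lists share no common scale. The deposited −log10 q was never below 1.0002. The lists hold no read counts, so read depth is unknown and sites carry no counting intervals.

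Peaks were merged with python 3.11.15, numpy 2.4.6 and pandas 2.3.3, and figures were drawn with matplotlib 3.10.9. Any overlapping peak of a library made a region called there. Gene spans and promoter windows came from RefSeq (GRCm38.p6), which holds 21900 protein-coding genes here. The start table had no entries for chromosome 18 or for the unplaced sequences, which together hold 66 members. The 4 library measures were compared by exact permutation, coded directly, with Benjamini-Hochberg adjustment. The counting and the flank measure were tested on simulated lists with planted members and a planted flank difference. Those lists did not copy the lengths or −log10 q values of the real lists. Intervals are Wilson intervals (scipy 1.17.1) and cover counting error only.

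Named were the 10 members of highest strength, up to 12 genes with 3 or more members nearest to them, up to 25 listed genes with a member, the 10 strongest gene-end members, and always Foxn1, Aire, Psmb11, Ccl21a, Pou2f3 and Trp63. A few listed genes and their lists are not reported here. The Copz2, Plppr3 and Zfhx3 members were named for their microRNAs, and the printed promoters by their number of CG pairs. Members and lists were chosen with earlier results of these data known. The alternatives tried were shorter lists, a stricter −log10 q, a wider merge, fuller coverage, all 4 embryonic lists, each library left out and the replicate number as a block.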

Additional observations from a re-analysis of the deposited data

How the results depend on the processing

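The number of members differed between the settings tried. It was 1047 with each list shortened to the shortest, 1259 with a −log10 q of at least 2 and 659 when peaks had to cover at least 50 percent of a region, against 2016 with gaps of up to 100 bp merged and 1741 with all 4 embryonic lists. The number of embryonic regions changed as well. As a share of them, the counts in that order were 3.02%, 1.63%, 1.10%, 2.32% and 2.65%, against 2.31% in the main setting. Leaving out 1 library gave 2036 to 13976, namely 13976 when mTEC2 replicate 2 was left out, 4403 for mTEC1 replicate 2 and 3504 for mTEC2 replicate 1. The mTEC1 and mTEC4 counterparts were fewer than members at each setting except without mTEC1 replicate 1, where mTEC1 had 4172 against 2276 members. There the mTEC1 count needed only the remaining mTEC1 list, whereas members needed both mTEC2 lists. Under the first 3 settings 525, 503 and 305 of the 2010 members overlapped a region that met the rule. The causes were not tested.

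The difference in share at gene ends kept its sign, at -7.27 to -5.07 points over left-out libraries, but its size moved to -3.16 points with each list shortened, -22.2 with the coverage rule and -8.91 with gene ends taken as 2.5 kb. The difference inside genes stayed positive under the settings tried, from 0.863 points with each list shortened to 8.32 with the coverage rule. The difference in median width changed sign: it was -9.63 bp with all lists shortened, -13.9 bp with the stricter −log10 q, -0.625 bp with gaps merged, -175 bp with that coverage rule, -26.4 bp with only the day 6 lists shortened (added after seeing the data) and -15.8 to 32.4 bp over left-out libraries. The difference in the log2 flank ratio was -0.212 with that coverage rule and -0.0820 to 0.150 over left-out libraries.

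With the replicate block (the replicate number as a block) the differences stayed as they were, such as -5.89 points at gene ends, 9 arrangements remain, and the exact permutation p was 0.667 for the flank ratio, 0.222 for gene ends, 0.222 inside genes and 0.889 for width. The numbers share no stated origin, and deviations of same-numbered libraries correlated at -0.113, -0.0665 and 0.0641 over embryonic regions. The unknown read depth limits every statement on a missing peak, and the −log10 q values tied at 1.82 in mTEC2 replicate 2 limit ranks there.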
